A study of Mus musculus with 2 samples.

Results

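In immune cells that had entered mouse tumors (TIIs), 17232 genes were measured cell by cell, and 10 of them are described here, in 1 library from *Maoa* WT mice and 1 from *Maoa* KO mice. They are *Cap1*, *Gdpd3*, *Alad*, *Dusp2*, *Snx20*, *Gm5900* and *Gm10093*, which had fewer transcripts in the library labelled KO, and *Apobec3*, *Gm26740* and *Erdr1*, which had more. They were picked by name because they differed in 1 direction between the libraries over several cell classes. The comparison between the libraries thus chose them, and every ratio between the libraries is a description with no test. What the choice did not use is how their transcripts spread over finer cell states and single cells within a library, which sequences resemble them, and what lies beside them in the genome. Ratios between the libraries in finer states use parts of the same cells, so they follow in part from the choice.

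TIIs came from tumors of B16-OVA, melanoma cells of mouse origin that make ovalbumin as an antigen, collected 14 days after inoculation. The *Maoa* KO mice were of the strain 129S-*Maoa* tm1Shih/J, which carries a hypomorphic *Maoa* allele, and had been crossed back to C57BL/6J for more than 9 generations, while the origin of the *Maoa* WT mice of these libraries was not given in the sources used here. The methods give female mice of 8 to 12 weeks unless stated otherwise. Live CD45.2+ cells from 10 combined tumors made 1 library per genotype, so genotype, remaining 129 sequence, mouse pool and library cannot be told apart, and intervals cover counting error only.

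MAO-A, the product of *Maoa*, breaks down monoamines such as serotonin. The library labelled WT contained 28801253 UMIs (unique molecular identifiers, each counting 1 captured RNA molecule) in 2392 cells, and the library labelled KO contained 23702018 in 2630 cells, with medians of 9887.5 and 6945.5 UMIs per cell. *Maoa* itself had 7 UMIs under the WT label and 15 under the KO label, so it does not bear out the labels and each direction rests on them. The Y-linked genes *Ddx3y*, *Eif2s3y*, *Kdm5d* and *Uty*, which females lack, were all present in both libraries, with a summed level of 80.6 to 170 CPM (UMIs per 1e6 UMIs of the same cells) over cell states under the WT label and 88.9 to 164 CPM under the KO label. Of the barcode sequences, 13 occurred in both libraries.

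The members have unrelated roles. *Cap1* recycles actin monomers, *Alad* catalyses an early step of heme synthesis, *Dusp2* is a nuclear phosphatase that switches off MAP kinases after lymphocyte stimulation, *Gdpd3* makes lysophosphatidic acid from lysophospholipids, and *Snx20* is a sorting nexin that binds PSGL-1 in leukocytes. *Apobec3* is a cytidine deaminase that restricts retroviruses, *Erdr1* lies at the pseudoautosomal region shared by the X and Y chromosomes, *Gm26740* is an antisense RNA, and *Gm5900* and *Gm10093* are processed pseudogenes, copies of a messenger RNA written back into the genome without introns.

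Cells were clustered without the members and *Maoa*. The 15 states with at least 30 cells in each library held 2167 cells labelled WT and 2462 labelled KO. Named by their closest marker lists, they were naive-like CD8 T cells (state 0, 151 and 394 cells), checkpoint-high CD8 T cells (state 1, 319 and 173), the same led by cell-cycle genes (state 7, 215 and 91), CD8 T-like cells led by *Pydc3* (state 12, 66 and 97), T-like cells led by *Klra6* and *Klra1* (state 10, 59 and 161), regulatory T-like cells (state 13, 74 and 63) and NK-like cells (state 2, 185 and 266). State 11 (79 and 108 cells) was closest to the regulatory T list but led by *Cd40lg* and *Cd4*, and is called by those genes. The myeloid states were monocyte-like cells led by *Vcan* and *Chil3* (state 9, 110 and 121 cells) or by *Hpgd* and *Ace* (state 4, 141 and 237), MHC class II-high monocyte-derived-like cells (state 5, 185 and 188), macrophage-like cells led by *Cxcl3* and *Inhba* (state 3, 287 and 133), C1q-high macrophage-like cells (state 8, 159 and 136) and *Cd209a* DC-like cells (state 6, 89 and 224). pDC-like cells formed state 14 (48 and 70 cells). Ratios are log2 of the CPM of the library labelled KO over that labelled WT, with 0.5 UMIs added. A member counts as lower or higher in a state when the exact 95% conditional interval of its ratio lies on 1 side of 0.

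Over all cells, all 10 members were past a 2-fold difference, with *Gm26740* nearest to it at a log2 ratio of 1.03 (interval 0.89 to 1.17). The share of all 10487 genes with at least 100 UMIs that passed 2-fold with the interval on that side was 1.77% lower and 1.29% higher. In the 15 states, the 7 members with fewer transcripts under the KO label were lower in 101 of 105 pairs of member and state, and the other 3 were higher in 34 of 45. Over the same 10487 genes 5.63% of pairs were lower and 5.12% higher. No pair had its interval on the other side of 0. *Cap1*, *Gdpd3*, *Dusp2*, *Snx20*, *Gm5900* and *Gm10093* were lower in all 15 states, which 0.172% of the genes were, and *Apobec3* was higher in all 15, which 0.114% were. *Alad* was lower in 11 and *Erdr1* higher in 13, and 0.849% of genes were lower and 0.534% higher in at least 10. In each single state 0.84 to 2.63% of the genes tested there were lower and 0.353 to 1.28% higher past 2-fold. Since this contrast chose the members, nothing is read from these shares. The median ratio of all genes in a state was between −0.08 and 0.11.

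**Figure D1:**
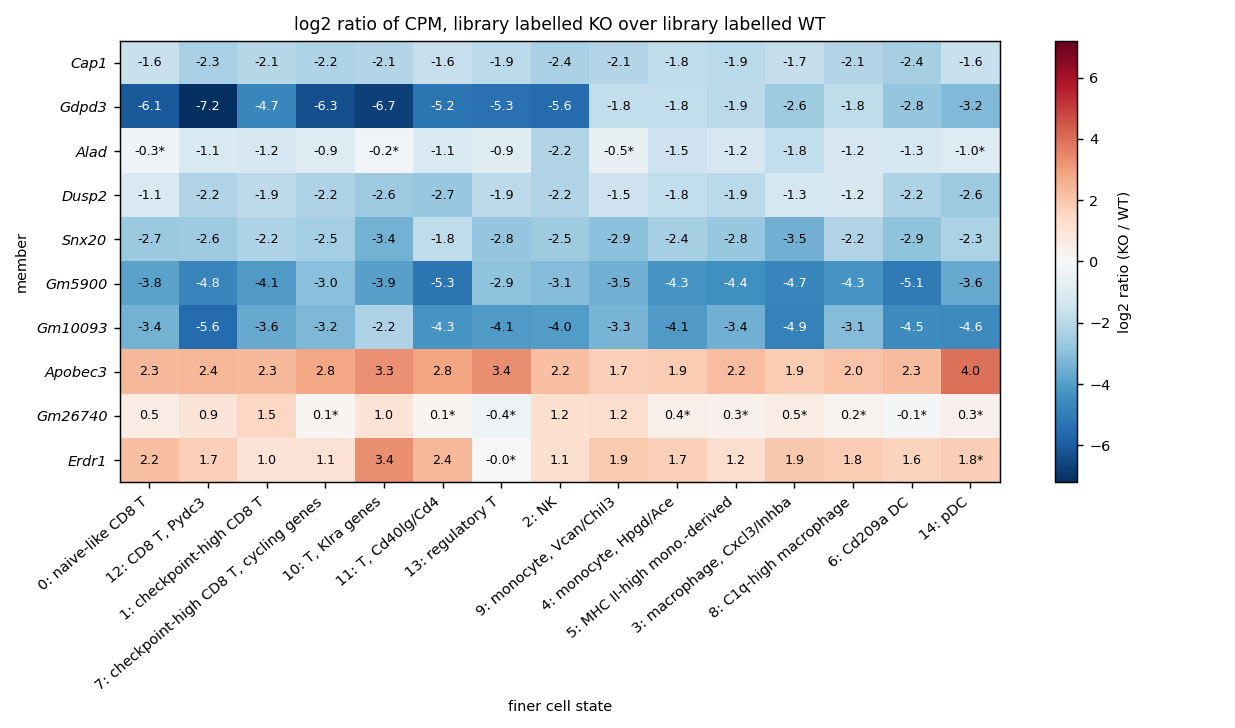
Heat map of the log2 ratio of CPM, library labelled KO over library labelled WT, for each member (rows) in the 15 finer states (columns), with the value printed in each cell and an asterisk where the exact 95% interval includes 0. *Gdpd3* is darkest in the lymphoid columns on the left (−6.70 to −4.71 where both libraries had UMIs) and paler in the myeloid ones, while *Cap1* is almost even across the row (−2.38 to −1.58); cells based on 0 UMIs under the KO label (*Gdpd3*, *Gm5900* and *Gm10093* in state 12, *Gm5900* in state 11) depend on the 0.5 added.

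The pseudogenes come first because their sequences bear on what was counted. *Gm10093* lies on chromosome 17 (GRCm38, plus strand, 78491582 to 78493025, a single exon of 1444 bases) and *Gm5900* on chromosome 7 (minus strand, 104949915 to 104950289, 375 bases), by GENCODE M21. Aligned to all GENCODE transcripts, *Gm10093* was closest to *Hdac1*, the gene on chromosome 4 for a class I histone deacetylase, at 99.4% identity over its whole length with 9 differences. *Gm5900* was closest to *Lamtor3*, the gene on chromosome 3 for a scaffold of the Ragulator complex on lysosomes, at 99.5% identity with 2 differences. The copies match the coding sequences, that is bases 85 to 1528 of the *Hdac1* transcript and 176 to 550 of the *Lamtor3* transcript. Stretches holding 6 of the 9 and both of the 2 differences are printed 5′ to 3′ with the differing bases in capitals, since within the matched stretch only reads across such bases can tell copy from source.
*Gm10093*, chr17:78491944-78492063, plus strand: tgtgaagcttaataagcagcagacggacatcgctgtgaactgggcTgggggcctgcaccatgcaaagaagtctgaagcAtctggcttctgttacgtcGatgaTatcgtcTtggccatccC
*Hdac1* transcript, bases 447 to 566: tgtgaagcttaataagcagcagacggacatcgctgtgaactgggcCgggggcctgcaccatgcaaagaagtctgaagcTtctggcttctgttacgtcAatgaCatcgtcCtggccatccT
*Gm5900*, chr7:104949944-104950189, minus strand: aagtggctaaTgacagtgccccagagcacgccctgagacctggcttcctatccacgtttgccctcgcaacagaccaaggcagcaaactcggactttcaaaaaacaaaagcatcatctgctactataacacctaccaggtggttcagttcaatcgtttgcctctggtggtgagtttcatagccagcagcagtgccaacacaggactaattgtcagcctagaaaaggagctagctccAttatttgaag
*Lamtor3* transcript, bases 276 to 521: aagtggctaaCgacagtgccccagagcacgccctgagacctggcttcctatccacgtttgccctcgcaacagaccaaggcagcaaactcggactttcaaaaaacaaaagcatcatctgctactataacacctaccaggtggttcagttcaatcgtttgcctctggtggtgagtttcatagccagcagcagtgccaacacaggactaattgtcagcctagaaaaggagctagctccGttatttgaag
With positions counted from 1 at the 5′ end of the pseudogene and the base of the source gene first, the differences in these stretches are C408T, T441A, A460G, C465T, C472T and T482C for *Gm10093* and C111T and G336A for *Gm5900*. The other differences of *Gm10093* are G342A, T719C and C1170A. A counting that keeps reads with 1 best place can divide the reads of such a pair between both rows, so the level of each row is uncertain. Cell Ranger is named in the labels without further settings.

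*Gm10093* had 2178 UMIs under the WT label (75.6 CPM, exact 95% Poisson interval 72.5 to 78.9) and 100 under the KO label (4.22 CPM, 3.43 to 5.13), a log2 ratio of −4.16. Over states its level was 30.3 CPM in C1q-high macrophage-like cells and in T-like cells led by *Klra6*, and up to 130 CPM in the cycling checkpoint-high CD8 T cells under the WT label, and 0 to 13.5 CPM under the KO label, with the highest value in that same cycling state. The median ratio over states was −4.03, or −3.65 with the state at 0 UMIs set to its bound. In the CD8 T-like cells led by *Pydc3* it had 23 and 0 UMIs, at least 7.68-fold lower by the limit that 3 counts give.

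Its source behaved otherwise. *Hdac1* had 2593 and 2006 UMIs (90.0 and 84.6 CPM), a log2 ratio of −0.09, and its interval included 0 in 13 of 15 states and lay above 0 in the other 2. The sum of both rows was lower in 11 of 15 states, with a median of −0.64. In the WT-labelled library 92.5% of the 1116 cells with a *Gm10093* UMI also had an *Hdac1* UMI, against 51.2% of all cells, and 615 cells held equal nonzero counts of both. After taking out depth and state, the UMIs of the pair had a Pearson r of 0.77 across the 2392 cells of that library, the largest for *Gm10093* among 10487 genes, with *Ssb* next at 0.16. In the KO-labelled library 90 of the 91 cells with *Gm10093* also had *Hdac1*, against 43.7% of all cells, and r was 0.19 over 2630 cells. These r values describe cells that share a library, a depth and a pair of alike sequences.

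*Gm5900* had 1074 UMIs under the WT label (37.3 CPM, 35.1 to 39.6) and 42 under the KO label (1.77 CPM, 1.28 to 2.4), a log2 ratio of −4.38. Under the WT label it was highest in C1q-high macrophage-like cells (59.2 CPM, 51.2 to 68.0) and lowest in naive-like CD8 T cells (16.6 CPM, 9.06 to 27.8). In the library labelled KO no cell held more than 1 UMI, and states 11 and 12 held 0, at least 6.21-fold and 4.34-fold lower. The median over states was −4.10, or −3.84 with these at their bounds. *Lamtor3* went the other way, from 1050 to 1481 UMIs (36.5 and 62.5 CPM), with a log2 ratio of 0.78, and was higher in 11 of 15 states. The sum of *Gm5900* and *Lamtor3* had an interval that included 0 in 14 of 15 states, with a median of −0.21, and over all cells it was at −0.20 (−0.30 to −0.10). Of the 753 WT-labelled cells with *Gm5900*, 56.8% had *Lamtor3*, against 31.1% of all cells (r = 0.30 over 2392 cells), and under the KO label 39 of 42 did, against 35.2% (r = 0.16 over 2630 cells).

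**Figure D2:**
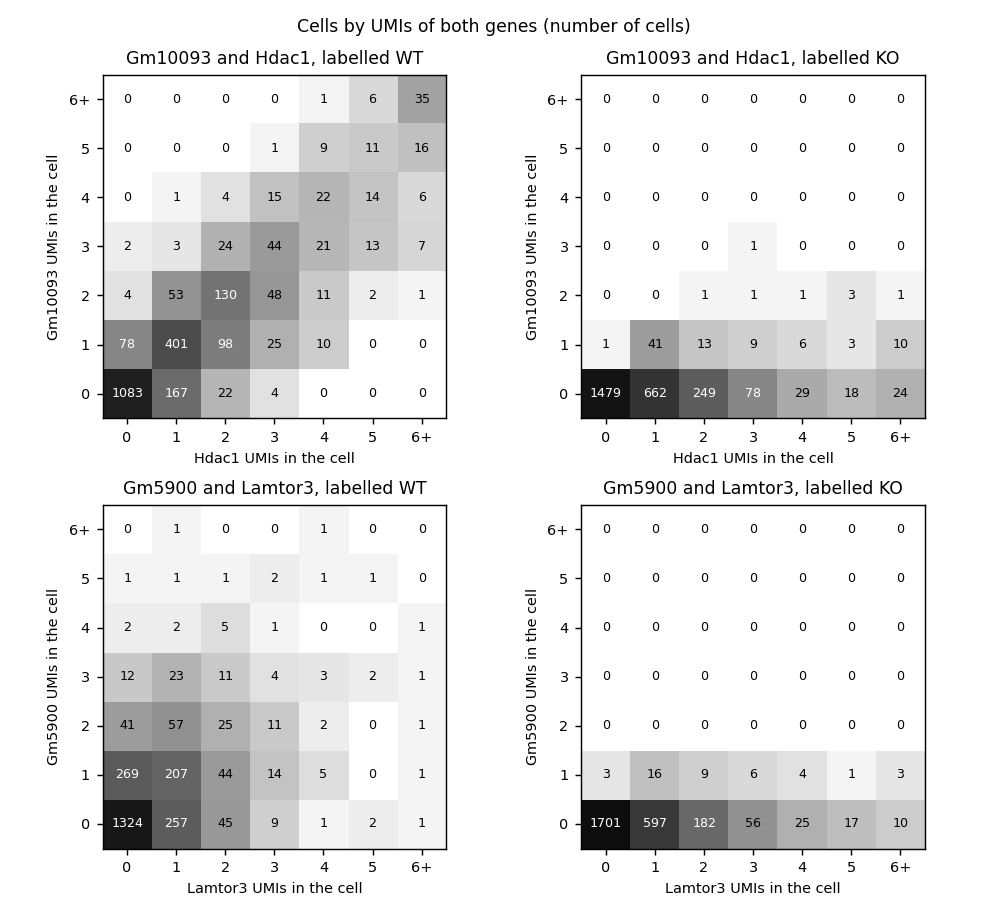
Number of cells by UMIs of a pseudogene (vertical) and of its source gene (horizontal) in the library labelled WT (left) and KO (right), from 0 to 6 or more. Under the WT label the cells of *Gm10093* and *Hdac1* lie along the diagonal (401 cells with 1 UMI of each), while for *Gm5900* 269 cells held 1 UMI with none of *Lamtor3*; under the KO label almost all cells lie in the bottom row.

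In the library labelled KO, 130 of 2630 cells had a UMI of *Gm10093* or *Gm5900*, at a median of 11516 UMIs per cell against 6755 in the others. The UMIs of the other members in them, divided by the number at the rate of the other cells of their states, were 1.02 for *Cap1* (159 UMIs, exact 95% Poisson interval 0.868 to 1.19), 1.30 for *Gdpd3* (0.900 to 1.82), 1.31 for *Alad* (1.02 to 1.65), 0.788 for *Dusp2* (0.563 to 1.07) and 1.11 for *Snx20* (0.732 to 1.62). For the members with more transcripts under the KO label they were 0.888 for *Apobec3* (0.794 to 0.990), 0.557 for *Gm26740* (0.396 to 0.762) and 1.19 for *Erdr1* (0.955 to 1.47). Of the 13 cells in each library whose barcode also occurs in the other, those labelled KO held 0 UMIs of *Gdpd3*, *Snx20*, *Gm5900* and *Gm10093*, 1 of *Dusp2*, 8 of *Cap1*, 31 of *Apobec3*, 10 of *Gm26740* and 4 of *Erdr1*. Those labelled WT held 20, 10, 13 and 14 UMIs of the first 4, and 18, 70, 5, 3 and 3 of the others in the same order. *Alad* had 5 UMIs in the cells labelled KO (48.2 CPM, 15.6 to 112) and 11 in those labelled WT (58.7 CPM, 29.3 to 105), intervals that overlap widely.

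*Cap1*, on chromosome 4 (122859047 to 122886056, minus strand), had the narrowest range of ratios over states of the 10 members. It had 9801 UMIs under the WT label (340 CPM, 334 to 347) and 1936 under the KO label (81.7 CPM, 78.1 to 85.4), and a log2 ratio of −2.06 (−2.13 to −1.99). Over states it was 162 CPM in pDC-like cells to 528 CPM in *Vcan* and *Chil3* monocyte-like cells under the WT label, and 53.5 to 122 CPM under the KO label, so the highest state of the KO label lay below the lowest of the WT label. The ratio was −1.58 in pDC-like cells (60 and 27 UMIs) and −2.38 in *Cd209a* DC-like cells (463 and 203 UMIs). With the WT label 89.8% of cells had a *Cap1* UMI and 59.6% had 3 or more, against 45.1% and 6.69% under the KO label. With each cell thinned to 3700 UMIs the shares with a UMI were 68.5% and 25.5%. Genes whose UMIs followed it most closely among cells were *Cotl1* (r = 0.23), *Cfl1* and *Pfn1* (each 0.22) over 2392 cells labelled WT, and *Cfl1* (0.11), *Actr3* (0.10) and *Arhgdib* (0.09) over 2630 labelled KO. The other actin turnover genes did not share the difference: of 13 with at least 100 UMIs *Cap1* alone was past 2-fold, and the median of the list was −0.02, against −0.01 for all genes. *Cfl1* (cofilin) was at −0.02, *Pfn1* (profilin) at −0.11 and *Wdr1* at −0.12.

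*Gdpd3*, on chromosome 7 (126766334 to 126775649, plus strand), had the widest spread of ratios. There were 3429 UMIs under the WT label (119 CPM, 115 to 123) and 402 under the KO label (17 CPM, 15.3 to 18.7), and the log2 ratio was −2.81. In the library labelled WT the 8 lymphoid states held 1638 UMIs, at 73.1 CPM in cycling checkpoint-high CD8 T cells to 554 CPM in regulatory T-like cells (490 to 624), well above any other state. The 7 myeloid and pDC-like states held 1497, at 84.4 to 257 CPM. With the KO label the lymphoid states held 26 UMIs in all, at 0 to 12.4 CPM, and the myeloid and pDC-like states 359, at 14.1 to 74.2 CPM. The ratio was therefore −6.70 to −4.71 in lymphoid states where both libraries had UMIs and −3.19 to −1.79 in the others, and these ranges do not overlap. In state 12 it had 72 and 0 UMIs, at least 24-fold lower. Over all 15 states the median was −4.71, or −4.59 with that state at its bound. The order of the states was not shared between libraries (Spearman's rho −0.01 over 15 states), and the highest under the KO label was the *Hpgd* and *Ace* monocyte-like state (132 UMIs, 74.2 CPM, 62.0 to 87.9).

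The UMIs of *Gdpd3* were clumped among cells under the WT label. A UMI was found in 56.1% of the cells of the compared states, where a Poisson spread at each state's rate and each cell's depth gives 70.6%, and the median variance over states was 2.66 times the Poisson one. In the KO-labelled cells these were 11.8% against 12.9%, and 1.14 times. Both measures move towards the Poisson value as the mean falls, so the libraries are not compared on them. The most UMIs in 1 cell were 24 and 7. Its neighbour *Ypel3*, which starts 1.3 kb further on, was the gene most alike among cells under the WT label (r = 0.24 over 2392 cells) but had 2658 and 3444 UMIs, at a log2 ratio of 0.65. *Mapk3*, on the other side, was at 0.14. Alignment found no other GENCODE transcript that resembles *Gdpd3*. Of the other glycerophosphodiesterase genes, 4 had at least 100 UMIs and none was past 2-fold, the lowest being *Gde1* at −0.74.

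Markers of neutrophils, which the sort could hold, were also lower under the KO label in most states. *S100a8* and *S100a9* summed to 95.4 to 1174 CPM over states under the WT label and to 0 to 726 CPM under the KO label, were lower in 14 of 15 states (median −4.97, with 69 and 0 UMIs in regulatory T-like cells), and were higher in the *Vcan* and *Chil3* monocyte-like state, where *Gdpd3* was lower. Their order over states was not that of *Gdpd3*. Under the WT label the sum was highest in the *Cd40lg* and *Cd4* T-like cells (1174 CPM), where *Gdpd3* was at 224 CPM, and was 141 CPM in the regulatory T-like cells, where *Gdpd3* was highest at 554 CPM. The list of *S100a8*, *S100a9*, *Retnlg*, *Csf3r*, *Cxcr2*, *G0s2* and *Ly6g* was lower in the same number of states. Its part in the values of *Gdpd3* and the other members was not tested. The melanoma list (*Pmel*, *Mlana*, *Tyrp1*, *Dct*, *Tyr*, *Gpnmb* and *Mitf*) was lower in 3 states, higher in 3 and on neither side in 9, and without the cells that held a UMI of its pigment genes 95.2% of the pairs were lower in place of 96.2%, and none had its interval on the other side of 0.

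**Figure D3:**
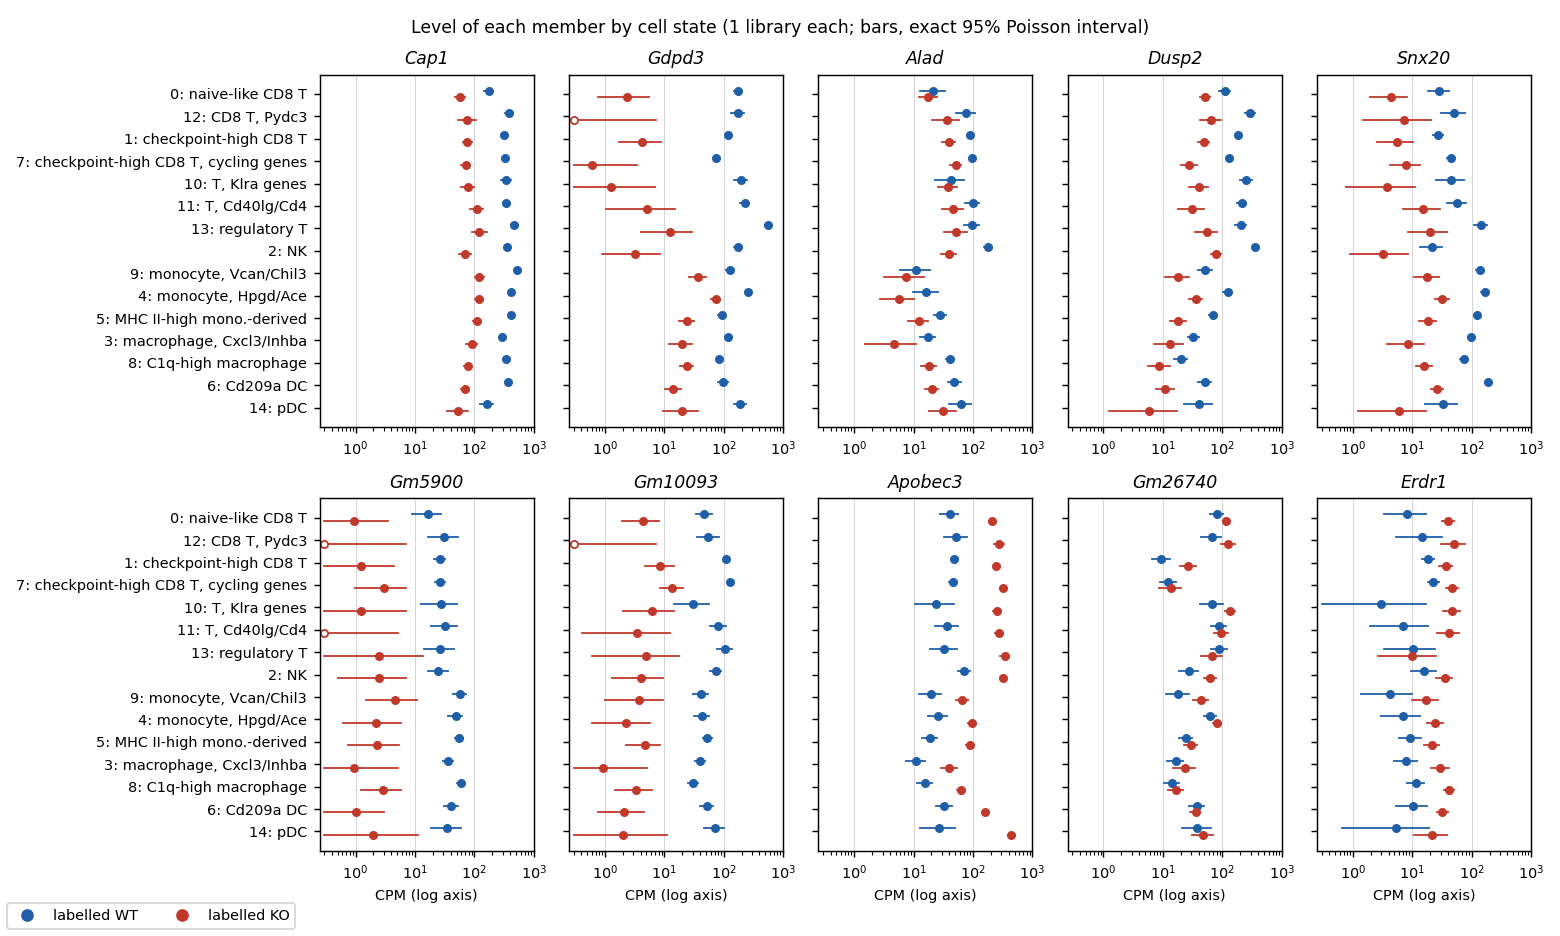
Level of each member in CPM (log axis) in the 15 finer states, 1 library per label, with exact 95% Poisson intervals and open circles for 0 UMIs. Levels labelled KO (red) lie left of levels labelled WT (blue) for the first 7 members and right of them for *Apobec3*, which ran from 40 to 440 CPM under the KO label and from 11 to 71.3 CPM under the WT label, with no overlap of intervals within a state.

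*Alad*, on chromosome 4 (62509169 to 62519918, minus strand), had 1847 UMIs under the WT label (64.1 CPM, 61.2 to 67.1) and 571 under the KO label (24.1 CPM, 22.2 to 26.2), with a log2 ratio of −1.41. It was lower in 11 states and on neither side in 4, namely naive-like CD8 T cells (18 and 37 UMIs, −0.28), the *Klra6* T-like cells (14 and 30 UMIs, −0.20), the *Vcan* and *Chil3* monocyte-like cells (13 and 8 UMIs, −0.53) and pDC-like cells (23 and 16 UMIs, −0.95). NK-like cells had the highest level under the WT label, 179 CPM (155 to 205), against 39.3 CPM (29.0 to 52.1) under the KO label, and the widest ratio, −2.17. The order of states was alike in both libraries (rho 0.93 over 15 states). The genes most alike among cells were *Ranbp1* (r = 0.23), *Mcm3* and *Ptma* (each 0.21) over 2392 cells labelled WT, and *Polr2f*, *0610007P14Rik* (each 0.10) and *Chaf1a* (0.09) over 2630 labelled KO. Of 12 heme genes with at least 100 UMIs, *Alad* and *Hmox1*, which degrades heme (22934 and 8079 UMIs, −1.22), were past 2-fold, both lower, and the list's median was −0.21. These are ratios over all cells, and *Hmox1* is a marker of the *Cxcl3* and *Inhba* macrophage-like state, which held 287 and 133 cells. By class, heme genes other than *Alad* were past 2-fold in TAM/monocyte cells alone (1 of 10 tested, against 0 of 10 in T cells, 0 of 1 in NK cells and 0 of 7 in DCs). Of the other enzymes of the pathway, *Alas1* was at −0.20 and *Urod* at 0.14. *Hdhd3*, 5.7 kb away, was lower by a similar size from few UMIs (90 and 27, −1.44, interval −2.13 to −0.82), and *Pole3*, 2.7 kb away on the other side, was at −0.34.

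*Dusp2*, on chromosome 2 (127336159 to 127338376, plus strand), had 3093 UMIs under the WT label (107 CPM, 104 to 111) and 686 under the KO label (28.9 CPM, 26.8 to 31.2), with a log2 ratio of −1.89. It was highest in NK-like cells in both libraries, at 355 CPM (404 UMIs) and 78.5 CPM (96 UMIs), and the order of states was alike (rho 0.88). The ratio ran from −1.09 in naive-like CD8 T cells, where all genes had a median of 0.11, to −2.74 in the *Cd40lg* and *Cd4* T-like cells (119 and 18 UMIs). Like *Gdpd3* it was clumped among cells under the WT label, with a UMI in 50.5% of cells against 60.4% at a Poisson spread and a median variance of 2.45 times the Poisson one (18.5% against 21.3% and 1.42 times at the lower mean under the KO label). The genes most alike among cells were *AW112010* (r = 0.19), *H2-D1* (0.16) and *H2-K1* (0.15) over 2392 cells labelled WT, and *Nfkbia* (0.12), *Nfkbiz* and *Lck* (each 0.11) over 2630 labelled KO. Among 16 dual-specificity phosphatases with at least 100 UMIs, *Dusp2* and *Dusp14* (219 and 63 UMIs, −1.51) were past 2-fold, the median was −0.08 and *Dusp1* was at −0.02. Many early response genes, like *Dusp2*, are induced on stimulation. Of the 15 listed, 0 were higher and 1 was lower past 2-fold over all cells, *Jund* (13352 and 3618 UMIs, −1.60). In T cells 2 were higher and 1 lower, with a median of 0.35, where all genes had −0.08 and 1.23% were higher and 2.29% lower. In TAM/monocyte cells 1 was higher and 1 lower, with a median of 0.42, where all genes had 0.06 and 0.672% were higher and 1.68% lower. Over all cells the median was 0.55, where all genes had −0.01, with *Fos* at 0.65, *Egr1* at 0.77 and *Nr4a1* at 0.81, while *Klf2* (−0.57), *Ier3* (−0.24), *Klf6* (−0.11) and *Dusp1* were below 0 beside *Jund*.

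*Snx20*, on chromosome 8 (88626563 to 88636128, minus strand), had 2272 UMIs under the WT label (78.9 CPM, 75.7 to 82.2) and 349 under the KO label (14.7 CPM, 13.2 to 16.4), with a log2 ratio of −2.42. It was highest in myeloid states in both libraries. *Cd209a* DC-like cells had 192 CPM (169 to 217) and 26.1 CPM (20.6 to 32.7), *Hpgd* and *Ace* monocyte-like cells 166 and 31.5 CPM, and NK-like cells, the lowest in both, 21.1 CPM (13.5 to 31.4) and 3.27 CPM (0.892 to 8.38). These 15 levels had the most alike order of all members (rho 0.94), and regulatory T-like cells, at 143 CPM under the WT label, were the highest lymphoid state. The ratio was −3.47 in *Cxcl3* and *Inhba* macrophage-like cells (275 and 9 UMIs) and −1.82 in the *Cd40lg* and *Cd4* T-like cells (32 and 9 UMIs). Of 19 genes of the sorting nexin list with at least 100 UMIs it alone was past 2-fold, with a median of −0.05. *Selplg*, which codes for its partner PSGL-1, was at 0.13. Its neighbours *Nod2*, 11.2 kb away, and *Brd7*, 264 kb away, were at 0.56 and −0.29.

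*Apobec3*, on chromosome 15 (79891659 to 79915906, plus strand), had 934 UMIs under the WT label (32.4 CPM, 30.4 to 34.6) and 4312 under the KO label (182 CPM, 177 to 187), with a log2 ratio of 2.49 (2.39 to 2.59). The order under the KO label was led by pDC-like cells at 440 CPM (384 to 502) and regulatory T-like cells at 345 CPM (290 to 407), whose intervals overlap, followed by NK-like cells at 321 CPM and cycling checkpoint-high CD8 T cells at 320 CPM. The lowest was *Cxcl3* and *Inhba* macrophage-like cells at 40 CPM (28.9 to 53.8), which were also lowest under the WT label, at 11 CPM (7.47 to 15.6). With the WT label NK-like cells led, at 71.3 CPM (56.6 to 88.6), and pDC-like cells were low, at 26.9 CPM (12.9 to 49.6, 10 UMIs). The ratio was thus widest in pDC-like cells, 3.96 (3.12 to 5.11), and smallest in the *Vcan* and *Chil3* monocyte-like cells, 1.74 (1.06 to 2.51), intervals that do not overlap. Lymphoid states had a median ratio of 2.58 and the myeloid and pDC-like states 2.03. The share of cells with a UMI was 29.0% and 65.4%, and 12.2% and 45.0% with each cell thinned to 3700 UMIs. In the KO-labelled cells its UMIs most closely followed *Ifi47* (r = 0.21), *Samhd1* (0.20) and *Mndal* (0.19) over 2630 cells, and under the WT label *Phf11b* (0.13), *Ifi35* and *AW112010* (each 0.11) over 2392 cells.

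The other deaminases of the family did not share the direction of *Apobec3* as a group. *Apobec1*, an RNA-editing enzyme, was lower, with 3621 and 1159 UMIs (−1.36) over all cells. By class it was at −0.51 in T cells and −0.98 in DCs, and past 2-fold in TAM/monocyte cells alone (−1.37). *Apobec2* had 0 and 70 UMIs, at least 28.4-fold higher by the limit that 3 counts give. *Cbx7*, a Polycomb gene on the opposite strand whose end overlaps the last bases of *Apobec3*, was higher too, with 102 and 289 UMIs (1.78, interval 1.45 to 2.12). Overlapping genes can share reads where the counting ignores strand, and its settings were not given. Of the 12 other genes within 250 kb of *Apobec3* with at least 100 UMIs, *Cbx7* alone was past 2-fold, and their median was 0.07.

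*Erdr1* is placed as a transcribed pseudogene by RefSeq on chromosome X (GRCm38.p6, 170010526 to 170018797) and is not in GENCODE M21. The sequence aligned for it was the GENCODE transcript of *Gm21887*, which lies at the same place. A transcript of *Gm47283* on chromosome Y matched that sequence without a difference over 529 of its 531 bases. By that sequence X and Y copies cannot be told apart. *Erdr1* had 388 UMIs under the WT label (13.5 CPM, 12.2 to 14.9) and 816 under the KO label (34.4 CPM, 32.1 to 36.9), with a log2 ratio of 1.35. It was higher in 13 states and on neither side in regulatory T-like cells (5 and 4 UMIs, −0.01, interval −2.37 to 2.18) and pDC-like cells (2 and 11 UMIs, 1.76, −0.18 to 5.23). The largest ratio, 3.37 (1.37 to 9.28), rests on 1 and 37 UMIs in the *Klra6* T-like cells. In the KO-labelled cells its UMIs were clumped, in 18.1% of cells against 23.1% at a Poisson spread, with a median variance of 1.65 times the Poisson one and up to 11 in 1 cell. At the same place the table has a row *Gm21887* with 11 and 61 UMIs (2.70), and *Mid1*, which crosses the border of the pseudoautosomal region, had 41 and 155 UMIs (2.19, 1.69 to 2.73). The 4 Y-linked genes, which are outside that region, were not past 2-fold, with a median of 0.11.

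*Gm26740*, an antisense RNA on chromosome 10 (22187013 to 22302835, minus strand), was the weakest member. It had 688 UMIs under the WT label (23.9 CPM, 22.1 to 25.7) and 1157 under the KO label (48.8 CPM, 46.0 to 51.7). Within states the median ratio was 0.37, with 6 states higher and 9 on neither side, so it was smaller within states than over all cells. It was highest in T-like states in both libraries, up to 88.3 CPM in the *Cd40lg* and *Cd4* cells under the WT label and 133 CPM in the *Klra6* cells under the KO label. The ratio was 1.51 (0.85 to 2.19) in checkpoint-high CD8 T cells, where the level was 9.37 and 26.8 CPM, and −0.38 (−1.14 to 0.34) in regulatory T-like cells. In the DC class it was 0.10 (−0.31 to 0.53), so it did not differ in every class. *Raet1e*, on the opposite strand over the same stretch, had 23 and 29 UMIs, and 5 and 8 cells held both.

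**Figure D4:**
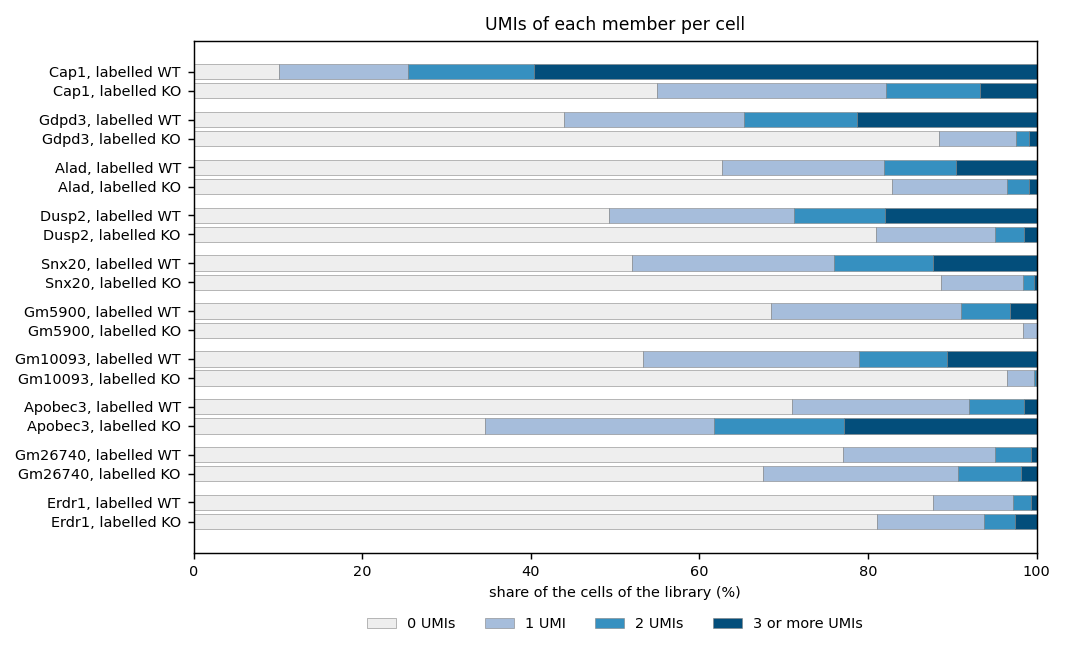
Share of the cells of each library (percent, from 0 to 100) with 0, 1, 2 and 3 or more UMIs of each member, with 2392 cells labelled WT and 2630 labelled KO. *Cap1* went from 10.2% of cells with 0 UMIs under the WT label to 54.9% under the KO label, *Gdpd3* from 44.0% to 88.4% and *Gm10093* from 53.3% to 96.5%, while *Apobec3* went from 71.0% to 34.6%.

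Of 68 genes within 250 kb of a member and with 100 or more UMIs, 5 were past 2-fold (7.35%), 1 lower and 4 higher, where 1.77% of all genes were lower and 1.29% higher. *Gm5900* had no such neighbour. There were 11 genes around *Dusp2*, 2 around *Snx20* and 3 each around *Gm10093* and *Gm26740*, and none was past 2-fold. Around *Gdpd3* 1 of 23 was, *Slx1b* at 1.09, and around *Cap1* 1 of 4, *Mycl* at 1.16, both in the opposite direction to the member. These ratios are over all cells. *Mycl* led, among other genes, a *Cd209a* DC-like cluster of 52 and 197 cells in a finer clustering, and the part of cell numbers in its ratio was not tested. The neighbour past 2-fold was in the direction of the member for *Alad* (1 of 9), *Apobec3* (1 of 12) and *Erdr1* (1 of 1). *Ppt1*, which overlaps the end of *Cap1* on the other strand, was at 0.50.

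**Figure D5:**
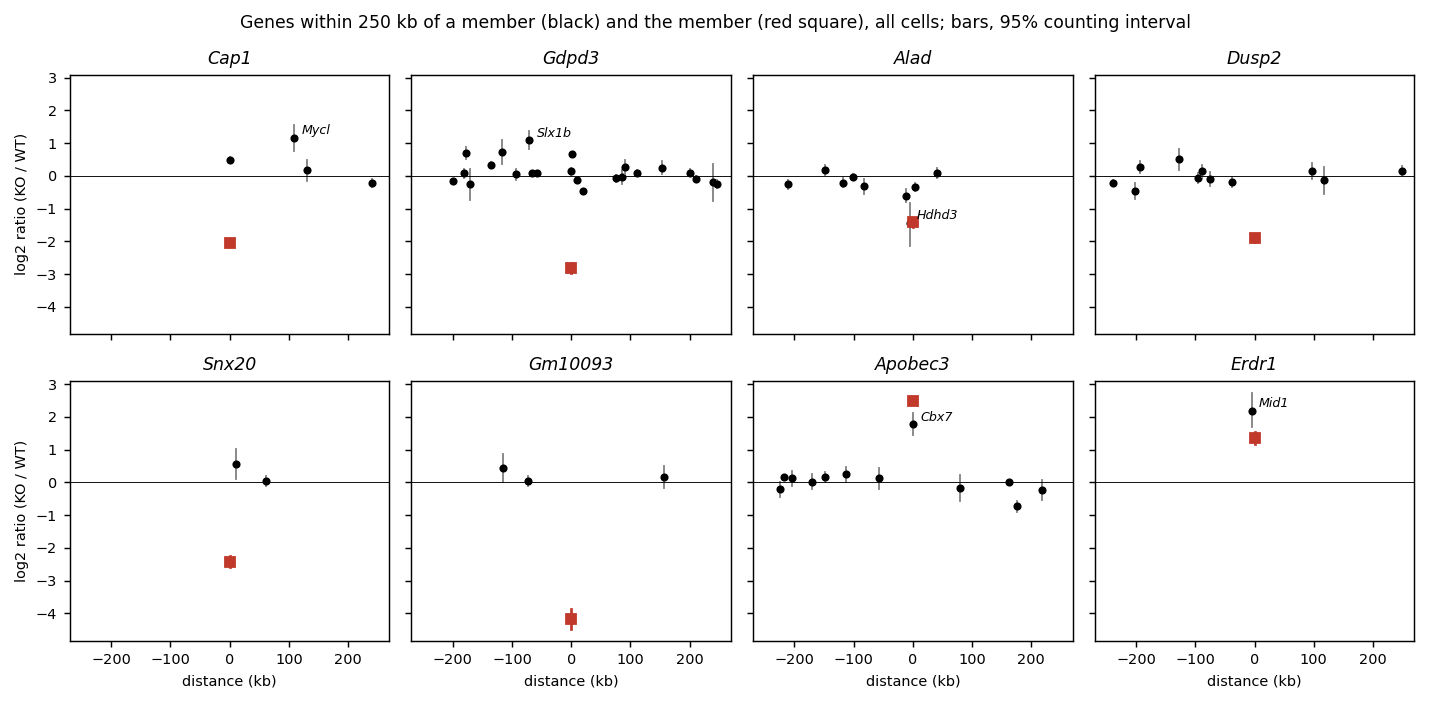
log2 ratio (KO over WT label, all cells) of each member (red square) and of the other genes within 250 kb (black points) by distance in kb, with 95% counting intervals. The genes around *Cap1*, *Gdpd3*, *Dusp2*, *Snx20* and *Gm10093* lie between −0.48 and 1.16 (medians 0.33, 0.07, −0.06, 0.30 and 0.17), while *Hdhd3*, *Cbx7* and *Mid1* lie near *Alad*, *Apobec3* and *Erdr1*.

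By class rather than state, 4 classes were compared, T cells (692 and 932 cells), NK cells (187 and 268), TAM/monocyte cells (969 and 831) and DCs (141 and 323). An unnamed checkpoint-high cluster of 348 and 182 cells, B cells (7 and 24) and pDC-like cells (48 and 70) were not among them, and in the pDC-like cells *Alad* was at −0.95 (−1.99 to 0.02). Different states led these classes in the libraries, the cycling checkpoint-high CD8 T cells (state 7) and the *Cxcl3* and *Inhba* macrophage-like cells (state 3) under the WT label, and the naive-like CD8 T cells (state 0) and the *Hpgd* and *Ace* monocyte-like cells (state 4) under the KO label. Of 2504 genes that had 100 or more UMIs in all 4 classes, 7 were lower past 2-fold in all of them (0.28%) and 1 was higher (0.0399%). The 7 were *Cap1*, *Gdpd3*, *Dusp2* and *Alad* and the non-members *Rac1*, *Arf6* and *Jund*, and the 1 was *Apobec3*. *Rac1*, a GTPase of actin signalling, had ratios of −1.58 to −1.25 over the classes, *Arf6*, a GTPase of membrane traffic, −1.56 to −1.21, and *Jund*, an AP-1 subunit, −1.65 to −1.19. *Alad* was nearest the limit, at −1.12 in DCs, and without the cells that held T cell and myeloid UMIs it was at −0.92 there and no longer among them. With cells thinned to 3700 UMIs, or with classes gated on marker UMIs, 1254 and 1874 genes had enough UMIs in all 4, and *Cap1* was still lower and *Apobec3* higher in each. *Gdpd3*, *Dusp2* and *Alad* then had under 100 UMIs in DCs (82, 55 and 45 thinned, 78, 55 and 60 gated), and *Alad* thinned also in TAM/monocyte cells (94), so they were not counted. Their ratios in DCs were −3.20, −1.77 and −0.88 thinned and −1.97, −2.66 and −0.86 gated. *Snx20*, *Gm10093* and *Erdr1* had too few UMIs in NK cells and *Gm5900* in NK cells and DCs, and *Gm26740* was tested and stopped at DCs.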

How the data were processed

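Single TIIs were sequenced from 2 libraries, 1 per genotype. Per the labels and methods, the authors made Chromium 3′ V2 libraries, counted UMIs with Cell Ranger (build mm10 in the submitters' notes), aggregated both libraries, filtered cells (0 of 5022 fail that filter here) and normalised with Seurat. The deposited values are on a natural log scale (1 added to UMIs that were scaled to a total of 10000 in every cell), although described as raw counts. Dividing the exponential minus 1 by each cell's smallest nonzero value returned the UMIs, which were whole within 0.01 for 100% of the 11830623 values above 0, and all sums use these. Cells were assigned by barcode suffix.

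The members, gene lists and markers were chosen with earlier results of these data known. With 1 library per group no test was run. CPM have exact Poisson intervals, and log2 ratios have 0.5 UMIs added and exact conditional binomial intervals, all at 95%. A count of 0 is bounded at 3 counts. The UMIs of the gene in the cells compared set the width of these intervals. Clusters came from Seurat 5.3.0 (R 4.3.3) with 13 PCs and depth regressed out, at resolution 0.8 for classes and 1.6 for states, and were named by marker lists (at least 3 markers detected, in 10% of cells). These naming cutoffs, and the gates of 1 alternative, were set after clusters were seen. Doublets were not removed in the main values; leaving out the 32.3% (WT label) and 21.3% (KO label) of cells with T cell and myeloid UMIs was an alternative. Correlations among cells are of UMIs less the expectation of each cell's depth and state. Positions, for 16600 of 17232 symbols, and transcripts are from GENCODE M21 (GRCm38), aligned with BLAST+ 2.17.0. The named genes are the members, *Maoa*, their neighbours and closest transcripts, genes differing in every class and the listed pathways; genes most alike among cells, pseudogenes past 2-fold and genes on 1 side in 15 states were chosen after their values were seen. Python 3.11.15, numpy 2.4.6, scipy 1.17.1 and pandas 2.3.3 were used, and scripts were tested on simulated data. Some members of the lists are not reported here. The study's Wilcoxon test, which takes cells as replicates, was not used.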

Additional observations from a re-analysis of the deposited data

How the results depend on the processing

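Every member kept the direction of its overall ratio under all alternatives tried, and no pair of member and state had its interval on the other side of 0. The 7 members lower under the KO label were lower in 85.7 to 97.6% of their pairs with a state (main value 96.2%), and the 3 higher ones were higher in 57.8 to 80.6% (75.6%), lowest with cells thinned to 3700 UMIs, where *Alad* was lower in 40% of states, *Gm26740* higher in 20% and *Erdr1* higher in 53.3%. *Gdpd3* moved from −2.81 to −3.26 thinned and −3.34 with cells weighted equally. The count of genes lower in every class, 7, became 23 past 1.5-fold, 0 past 4-fold, 21 with a minimum of 30 UMIs, 33 with no minimum and 4 with classes gated on marker UMIs. It was 5 thinned, and there and with the gates *Gdpd3*, *Dusp2* and *Alad* were not counted, having under 100 UMIs in DCs. The count of genes higher, 1, became 9 past 1.5-fold, 3 with a minimum of 30 UMIs and 8 with no minimum. Adding the unnamed checkpoint-high cluster to T cells, an alternative added after seeing the data, left them at 7 and 1. No paired analysis was possible because each genotype has 1 library. Leaving out a replicate was likewise not possible, so nothing here measures the spread between mice or libraries.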

Other observations

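A few pseudogenes other than the members also differed between the libraries. Of the 47 annotated pseudogenes with at least 100 UMIs that are not members, 2 were lower past 2-fold under the KO label (4.26%) and 1 was higher (2.13%), and of 9909 protein-coding genes 1.74% were lower and 1.28% higher. The lower ones were *Gm6594* (286 and 1 UMIs, −7.30, interval −13.2 to −5.39) and *Gm4799* (143 and 40 UMIs, −1.54), and the higher one was *Serpinb10* (244 and 560 UMIs, 1.48). *Serpinb10*, a pseudogene by annotation only, runs from 107529003 to 107549271 on chromosome 1. It was a leading gene of the *Hpgd* and *Ace* monocyte-like state (141 and 237 cells), and the part of cell numbers in its ratio was not tested. *Gm6594* lies on chromosome 17 (82539260 to 82539545), as *Gm10093* does. These pseudogenes were chosen after their values were seen.

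The genes on 1 side in all 15 states included 12 non-members that were lower under the KO label, namely *Ctse* (−4.18 over all cells), *Dapk3* (−2.99), *Jund* (−1.60), *Arf6* (−1.34), *Gnas* (−1.34), *Rac1* (−1.34), *Srsf2* (−1.23), *Clptm1l* (−1.19), *Serpina3g* (−1.03), *Lamp1* (−1.01), *Ly6a* (−0.68) and *Klf2* (−0.57). Higher in all 15 were, besides *Apobec3*, *Sh3bgrl3* (0.84), *Junb* (0.64), *Wdr89* (0.47) and ribosomal protein genes and pseudogenes such as *Rps28* (0.36), *Rps13* (0.32), *Gm9493* (0.63) and *Rpl13-ps3* (0.60). These too were chosen after their values were seen.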
